A study of Mus musculus with 12 samples.

Results

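Genes that T cells switch on when their antigen receptor is engaged are described here: Nr4a1, Nr4a3, Egr1, Egr2, Egr3 and Myc. They were selected by gene symbol and are 6 of 13207 genes in the deposited data. RNA sequencing was done on CD4+ thymocytes of C57BL/6 mice given tamoxifen in olive oil 7 days earlier, at 10 μg per g of body weight, so that tdTomato marks cells labelled within a known time window. GFP was the gate for regulatory T cells (Treg), the cells that carry the transcription factor Foxp3. There were 4 sorted groups of 3 libraries each, named by the letters A, B and D in their titles. CD73+ newly generated Treg were sorted as tdTomato+GFP+CD73+ and CD73– newly generated Treg as tdTomato+GFP+CD73–. The tdTomato– Treg were sorted as tdTomato–GFP+ without a CD73 gate, and newly generated conventional T cells (Tconv) as tdTomato+GFP–CD73–. All 4 groups come from tamoxifen-treated mice. The labels name neither the Cre driver and reporter alleles nor the age of the mice, and do not say whether libraries of the same group stem from different animals. The p-values therefore cover only the scatter among these libraries, some of which may be technical.

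NR4A proteins are orphan nuclear receptors, EGR proteins are zinc finger factors, and MYC is a basic helix-loop-helix factor that drives cell growth. Their genes respond within a short time to T cell receptor signals, the EGR genes partly through the ERK kinase pathway, and their products then control slower genes. In the mouse thymus NR4A receptors take part in the deletion of self-reactive cells and in Treg development, and Nr4a1 reporters are widely used to read the strength of recent receptor signals. EGR proteins take part in positive selection and restrain activation later on.

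Promoter sequences are shown first as a description, and their part in the expression patterns below was not tested. The sequences run from 250 bases before to 50 bases from the start site on, from RefSeq on GRCm38.p6. Of the 6 genes, Nr4a1, Nr4a3 and Egr2 had an entry that is printed, and Nr4a2, the other NR4A gene, is set beside them. Capitals mark matches on either strand to TGACG, the core that is shared with the cAMP response element TGACGTCA, to GCGGGGGCG, an EGR site, and to the CArG box, the site of serum response factor.
Nr4a1, chr15:101266596-101266895, plus strand: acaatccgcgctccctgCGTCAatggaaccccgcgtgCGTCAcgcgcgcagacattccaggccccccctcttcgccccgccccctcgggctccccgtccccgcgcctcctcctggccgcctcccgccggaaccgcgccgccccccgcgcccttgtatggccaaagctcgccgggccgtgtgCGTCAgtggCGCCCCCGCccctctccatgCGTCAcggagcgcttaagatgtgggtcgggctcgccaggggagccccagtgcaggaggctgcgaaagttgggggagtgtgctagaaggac
Nr4a3, chr4:48045055-48045354, plus strand: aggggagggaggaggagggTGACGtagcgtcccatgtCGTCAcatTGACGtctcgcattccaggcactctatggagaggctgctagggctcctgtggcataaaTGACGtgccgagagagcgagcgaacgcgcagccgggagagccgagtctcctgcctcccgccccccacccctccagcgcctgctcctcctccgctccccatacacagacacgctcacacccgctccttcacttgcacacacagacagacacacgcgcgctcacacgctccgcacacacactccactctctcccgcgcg
Nr4a2, chr2:57123954-57124253, minus strand: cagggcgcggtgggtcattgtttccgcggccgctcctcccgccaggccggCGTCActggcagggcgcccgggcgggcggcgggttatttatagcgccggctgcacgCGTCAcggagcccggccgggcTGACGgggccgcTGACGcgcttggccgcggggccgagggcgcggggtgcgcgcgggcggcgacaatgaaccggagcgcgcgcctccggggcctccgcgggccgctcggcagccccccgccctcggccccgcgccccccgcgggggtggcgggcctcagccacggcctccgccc
Egr2, the third of its 5 RefSeq start sites, chr10:67537619-67537918, plus strand: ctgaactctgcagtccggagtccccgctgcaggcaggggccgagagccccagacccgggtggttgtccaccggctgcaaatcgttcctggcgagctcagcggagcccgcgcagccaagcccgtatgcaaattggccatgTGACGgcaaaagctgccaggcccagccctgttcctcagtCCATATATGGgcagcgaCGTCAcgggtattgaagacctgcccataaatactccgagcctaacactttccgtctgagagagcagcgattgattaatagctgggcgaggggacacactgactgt
Each of the 3 NR4A windows held 4 matches to TGACG, which reads CGTCA on the other strand. Over 27025 promoter windows of the same length, 1 per gene symbol, 21.0% held at least 1 such match and 0.252% held at least 4. Counted from the start site, they began at −233, −213, −69 and −40 in Nr4a1 and at −231, −213, −205 and −147 in Nr4a3. Nr4a1 also held GCGGGGGCG on the minus strand at −60 to −52, a match found in 2.92% of windows, and Egr2 held a CArG box at −72 to −63, found in 1.57%. None of these 4 windows held TGACGTCA (1.88% of windows), the AP-1 site TGACTCA (5.17%), the EGR site GCGTGGGCG (0.625%), the NR4A site AAAGGTCA (1.46%) or the E-box CACGTG (7.24%), the site of MYC. The Egr2 window was chosen after the matches were seen; start sites 3, 4 and 5 share its CArG box and both TGACG matches. The shares count the first listed window of a gene, so for Egr2 they do not allow for the choice among 5. Its window of start site 1 held the E-box at −27 to −22 and no CArG box. That of start site 2 held another CArG box and no TGACG. A match of letters is a description and not a bound site.

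All 6 genes were well above the limit of detection, with 281 to 4630 counts per library on an effective depth of 11000000 to 21400000 counts, where 3 counts, the upper limit for a gene with none, are a log2 CPM of −2.61 to −1.65. Values are on the log2 CPM scale, with CPM being counts scaled to a common library size, and were deposited by the authors in 2 separately scaled tables, 1 with both newly generated Treg groups and 1 with tdTomato– Treg and Tconv, so tests stayed within a table. Lars2 alone took 16.1% to 32.4% of the CPM of a library. All 7 CD4 T cell markers were measured in each group. In tdTomato– Treg all 7 were lower than in Tconv (limma, adjusted p under 0.05), where 25.7% of all genes tested were lower. The summed CPM of 8 Treg markers was 3950 to 4290 in CD73+ Treg, 3620 to 3750 in CD73– Treg, 4720 to 4800 in tdTomato– Treg and 234 to 242 in Tconv. Markers of other cells were also present. Summed over 9 markers of CD8 and double-positive thymocytes they were 30.8 to 35.8 CPM in CD73+ Treg, 38.0 to 99.1 in CD73– Treg, 58.8 to 72.9 in tdTomato– Treg and 47.7 to 51.7 in Tconv. B cell markers reached at most 10.3 CPM, myeloid and dendritic cell markers 43.6 CPM and thymic epithelial markers 8.24 CPM, each in tdTomato– Treg. The 5 erythroid markers measured, mostly globin genes, summed to 90.6 to 113.0 CPM in CD73+ Treg, 98.7 to 119.0 in CD73– Treg, 91.0 to 144.0 in tdTomato– Treg and 67.2 to 107.0 in Tconv, the highest of these lists. In bulk RNA from sorted cells, fewer cells expressing a gene and less RNA per cell cannot be told apart.

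Per kilobase of exon, Nr4a1 was the most abundant of the 6 messages in each group, with a mean of 72.0 ± 8.71 CPM per kb in CD73+ Treg, 73.8 ± 14.3 in CD73– Treg, 51.0 ± 3.89 in tdTomato– Treg and 43.4 ± 8.69 in Tconv (SD, n = 3). Egr3 was the least abundant, at 7.42 ± 0.338 CPM per kb in CD73+ Treg, 6.11 ± 0.497 in CD73– Treg, 9.62 ± 0.685 in tdTomato– Treg and 6.91 ± 0.382 in Tconv. Nr4a3, Myc and Egr1 lay between, and Egr2 had 9.73 ± 0.171 CPM per kb in CD73+ Treg, 8.95 ± 0.765 in CD73– Treg, 10.7 ± 0.577 in tdTomato– Treg and 9.92 ± 1.64 in Tconv. The span between the abundant Nr4a1 and the scarce Egr2 and Egr3 was thus present in Treg and in Tconv alike.

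The first comparison sets CD73+ against CD73– newly generated Treg. In the fit without the letters none of the 6 genes passed the threshold of an adjusted p under 0.05 (limma, adjusted over all 11170 genes tested). Of all genes 2.44% did (1.79% higher and 0.654% lower). At an unadjusted p under 0.05 there were 2, Egr3 and Myc, against 17.1% of all genes. In the authors' deposited table none of the 6 had an adjusted p under 0.05 either. Both NR4A genes had overlapping levels in the 2 kinds of new Treg, while the libraries of Egr3 and Myc did not overlap, without passing the test.

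Nr4a1 (ENSMUSG00000023034.7, GRCm38 chromosome 15, 101254269 to 101274795), the NR4A gene used in reporter mice, had a log2 CPM of 7.97, 7.80 and 8.15 in CD73+ Treg A, B and D, against 8.06, 7.68 and 8.25 in CD73– Treg. The groups overlapped fully and the B library was the lowest in each (log2 fold change −0.02, SE 0.14, adjusted p = 0.95). The sign was not stable, with log2 fold changes of −0.18 to 0.10 when 1 library at a time was left out.

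Nr4a3 (ENSMUSG00000028341.9, chromosome 4, 48045153 to 48086447), the second NR4A member of the list, had a log2 CPM of 7.87, 7.93 and 7.99 in CD73+ Treg A, B and D, against 7.87, 7.94 and 7.87 in CD73– Treg. The groups overlapped in a narrow range (log2 fold change 0.04, SE 0.06, adjusted p = 0.80), and the sign turned when the 4 libraries of letter D were left out (−0.01).

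Of the EGR genes, Egr1 (ENSMUSG00000038418.7, chromosome 18), the most abundant of them, had a log2 CPM of 6.93, 6.97 and 7.06 in CD73+ Treg, against 6.76, 6.88 and 6.94 in CD73– Treg. The groups touched, since the highest CD73– library reached above the lowest CD73+ library (log2 fold change 0.13, SE 0.08, adjusted p = 0.45). Egr2 (ENSMUSG00000037868.15, chromosome 10, 67535475 to 67542188) had a log2 CPM of 5.02, 5.07 and 5.05 in CD73+ Treg, against 4.83, 4.88 and 5.06 in CD73– Treg. Only the D library of the CD73– cells reached the CD73+ range (log2 fold change 0.12, SE 0.10, adjusted p = 0.57).

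Egr3 (ENSMUSG00000033730.4, chromosome 14, 70077203 to 70082614), which acts partly in place of Egr2 in mouse T cells, had a log2 CPM of 5.04, 5.09 and 4.96 in CD73+ Treg, against 4.88, 4.68 and 4.68 in CD73– Treg. The groups did not overlap. At 0.28 (SE 0.08, 1.22-fold, unadjusted p = 0.0038), the log2 fold change did not pass after adjustment (limma, adjusted p = 0.092; range over 22 alternatives 0.0635 to 0.319).

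Myc (ENSMUSG00000022346.15, chromosome 15, 61985391 to 61990374) had a log2 CPM of 6.55, 6.70 and 6.45 in CD73+ Treg A, B and D, against 6.30, 6.44 and 6.10 in CD73– Treg. Here too the groups did not overlap, though they nearly touched, and B was the highest and D the lowest library in each. Myc did not pass (log2 fold change 0.29, SE 0.09, 1.22-fold, limma, adjusted p = 0.094). Letter by letter the difference was 0.25 for A, 0.26 for B and 0.35 for D on the log2 scale. The letters were taken as pairing the libraries of this comparison, by a correlation limit of 0.1. With the letter as a replicate block Myc passed (limma, log2 fold change 0.29, SE 0.06, adjusted p = 0.00867), the only 1 of the 6 that did. Among all genes, 571 passed with the block, against 273 of 11170 without it. Myc also passed without the CD73– library B (limma, 0.37, adjusted p = 0.0314), and over the 22 alternatives its adjusted p ran from 0.00867 to 0.433. Counting Egr3 and Myc, 2 of 6 genes had groups that did not overlap, against 18.2% of all genes.

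The second comparison sets tdTomato– Treg against newly generated Tconv, 2 populations that differ in lineage and in labelling, and in CD73 gate. Here the 6 genes moved in different directions. Nr4a3, Egr3 and Myc were higher in tdTomato– Treg and Egr1 was lower, so that 4 of 6 passed the threshold; 52.1% of all 11198 genes tested did, 26.4% of them higher and 25.7% lower, and 4 of 6 genes had groups that did not overlap against 60.9% of all genes. At that background, the count of members that passed is not a result about these genes as a list. Of 39 markers of other cells on 5 lists, 21 were tested; 10 were higher in tdTomato– Treg than in Tconv and 2 were lower. Those higher included the B cell gene Cd79b (log2 CPM 2.14 ± 0.11 in tdTomato– Treg and −1.07 ± 0.61 in Tconv, 9.27-fold), Epcam (2.58-fold), Lyz2 (2.36-fold), H2-Aa (1.87-fold) and the globin genes Hba-a2 (1.62-fold) and Hbb-bs (1.48-fold). The 2 that were lower were Itgam (0.301-fold), on the same myeloid and dendritic cell list as Lyz2 and H2-Aa, and Cd8b1 (0.541-fold). Between CD73+ and CD73– Treg none of the 21 was higher (limma, 1 at an unadjusted p under 0.05) and 1 was lower. Of the 7 tested markers of CD8 and double-positive thymocytes, 4 were lower in CD73+ Treg and 0 higher at an unadjusted p under 0.05 (limma). The median log2 fold change of the 7 was −0.65, against 0.01 over all genes. The part of other cells in the differences of the 6 genes was not tested. The sizes and directions of the single genes follow.

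Nr4a3 had a log2 CPM of 7.33, 7.28 and 7.32 in tdTomato– Treg A, B and D, against 6.27, 6.51 and 6.42 in Tconv. The lowest Treg library was far above the highest Tconv library, and the Treg libraries hardly differed among themselves. Nr4a3 had a log2 fold change of 0.91 (SE 0.06, 1.88-fold, limma, adjusted p = 1e-09). This was the largest difference among the 6 genes in this comparison, and it passed in all 22 alternatives.

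Nr4a1 had a log2 CPM of 7.58, 7.36 and 7.50 in tdTomato– Treg, against 7.20, 6.96 and 7.53 in Tconv. The A and B libraries were higher in Treg, and the D libraries were level with each other. The log2 fold change of 0.25 (SE 0.14) did not pass (limma, adjusted p = 0.14). It passed without the Tconv library D (0.40, adjusted p = 0.02) and without all 4 libraries of letter D (0.39, adjusted p = 0.0224). Nr4a3 minus Nr4a1 within a library, a difference of log2 values that does not depend on library scaling, was −0.25, −0.08 and −0.18 in tdTomato– Treg A, B and D, against −0.93, −0.45 and −1.11 in Tconv. The lowest Treg value was above the highest Tconv value, so the 2 NR4A messages stood in different proportion in the groups, a description made after their values were seen.

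Egr1 had a log2 CPM of 6.78, 6.75 and 7.11 in tdTomato– Treg, against 7.12, 7.25 and 7.24 in Tconv. It was the 1 gene of the 6 that was lower in Treg; the groups did not overlap, but Treg library D nearly reached the lowest Tconv library. Its log2 fold change was −0.32 (SE 0.08, 0.799-fold, limma, adjusted p = 0.0032). Without the 4 libraries of letter B it was −0.23 and no longer passed (adjusted p = 0.056).

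Egr2 had a log2 CPM of 5.09, 5.23 and 5.22 in tdTomato– Treg, against 4.90, 5.32 and 4.96 in Tconv. Tconv library B was the highest of all 6, and the groups overlapped (log2 fold change 0.12, SE 0.10, adjusted p = 0.34). Without that library the log2 fold change was 0.25 and passed (limma, adjusted p = 0.0274).

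Egr3 had a log2 CPM of 5.36, 5.33 and 5.52 in tdTomato– Treg, against 5.01, 4.92 and 4.85 in Tconv. The groups were well apart (log2 fold change 0.48, SE 0.08, 1.39-fold, limma, adjusted p = 0.00015), and the gene passed in all 22 alternatives. Egr1 and Egr3 thus moved in opposite directions. Egr3 minus Egr1 within a library was −1.42, −1.42 and −1.59 on the log2 scale in tdTomato– Treg A, B and D, against −2.11, −2.33 and −2.39 in Tconv. These differences are a description. They could not overlap, since neither gene's groups overlapped and the genes moved in opposite directions.

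Myc had a log2 CPM of 6.57, 6.68 and 6.50 in tdTomato– Treg, against 5.77, 5.93 and 5.89 in Tconv. All Treg libraries were above all Tconv libraries (log2 fold change 0.72, SE 0.09, 1.65-fold, limma, adjusted p = 2.2e-06), in all 22 alternatives.

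**Figure D1:**
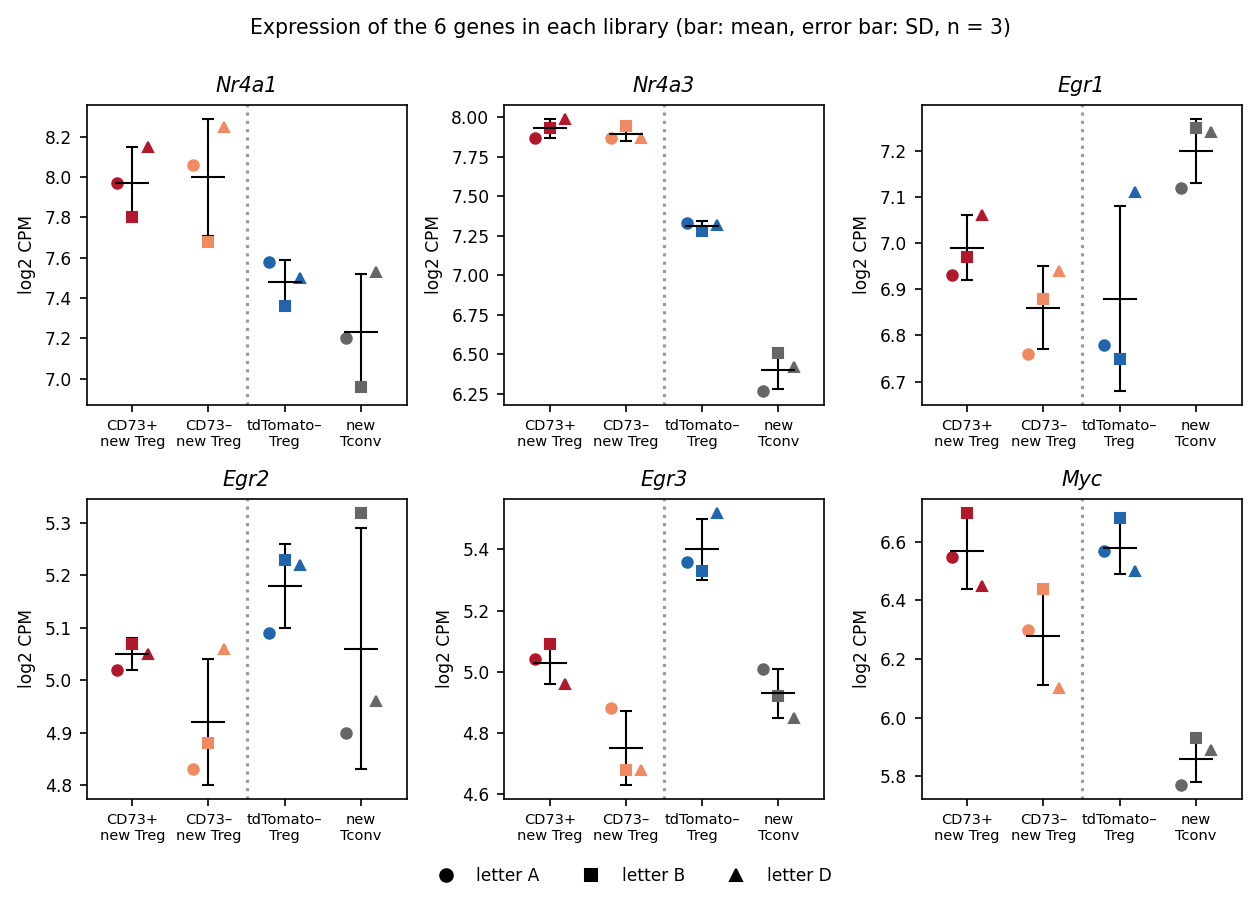
Log2 CPM of the 6 genes in each of the 12 libraries, with the group's mean (bar) and SD (n = 3); marker shapes give the letter, and the dotted line parts the separately scaled tables. Nr4a3 separates tdTomato– Treg (7.28 to 7.33) from Tconv (6.27 to 6.51), and the square of letter B is the lowest Nr4a1 value in each group.

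**Figure D2:**
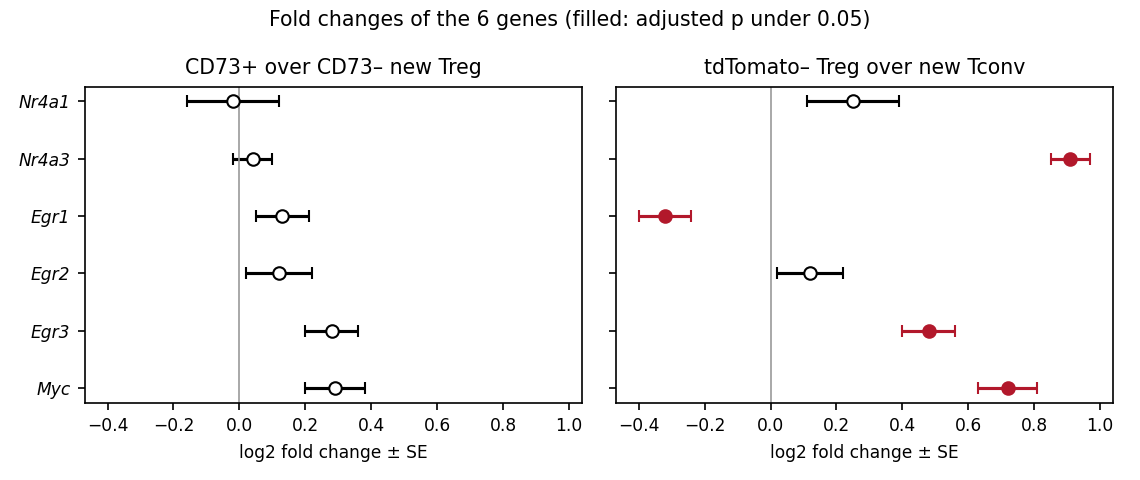
Log2 fold change with its SE for each gene in both comparisons, from the fit without the letters, filled where the adjusted p is under 0.05. On the left no gene is filled; on the right Nr4a3 (0.91), Myc (0.72) and Egr3 (0.48) are higher in tdTomato– Treg and Egr1 (−0.32) is lower.

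Set side by side over the 4 groups, without a test between tables, the genes took different orders. Nr4a3 had its highest mean log2 CPM in CD73+ Treg (7.93 ± 0.06, SD, n = 3) and CD73– Treg (7.89 ± 0.04), which overlapped, then tdTomato– Treg (7.31 ± 0.03) and Tconv (6.40 ± 0.12), each apart from its neighbour. Nr4a1 followed the same division between new Treg and the rest (7.97 ± 0.18 in CD73+ Treg, 8.0 ± 0.29 in CD73– Treg, 7.48 ± 0.11 in tdTomato– Treg, 7.23 ± 0.29 in Tconv), with overlap within each table. New Treg and the other groups were scaled separately, so for any of the genes a step between them cannot be told apart from scaling. Myc was level in tdTomato– Treg (6.58 ± 0.09) and CD73+ Treg (6.57 ± 0.13), lower in CD73– Treg (6.28 ± 0.17) and lowest in Tconv (5.86 ± 0.08). Egr3 was highest in tdTomato– Treg (5.40 ± 0.10), and its CD73+ Treg (5.03 ± 0.07), Tconv (4.93 ± 0.08) and CD73– Treg (4.75 ± 0.12) followed with each neighbour overlapping. Egr1 was highest in Tconv (7.20 ± 0.07), and the 3 Treg groups below it overlapped (6.99 ± 0.07 in CD73+, 6.88 ± 0.20 in tdTomato– and 6.86 ± 0.09 in CD73– cells). Egr2 neighbours overlapped throughout, between 5.18 ± 0.08 in tdTomato– Treg and 4.92 ± 0.12 in CD73– Treg.

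The letter of the library went with Nr4a1. In a fit of all 12 libraries with the 4 group means and the letter, a test added after the values were seen, Nr4a1 differed by letter (limma F test, adjusted p = 0.00071). The other 5 genes did not pass (adjusted p = 0.51 for Nr4a3, 0.10 for Egr1, 0.43 for Egr2, 0.78 for Egr3 and 0.093 for Myc), and 2.44% of all 11167 genes did. Without the intensity trend in the fit, none of the 6 passed after adjustment (limma), and 3 had an unadjusted p under 0.05. As a description, Nr4a1 in letter B lay 0.33 log2 units below the mean of A and D (SE 0.05), and B was the lowest Nr4a1 library in 4 of 4 groups. Myc went the other way, with B the highest library in 4 of 4 groups, by 0.17 log2 units (SE 0.05) over the mean of A and D.

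The AP-1 genes, whose products form the Fos and Jun dimers, moved with the letter in the same sense as Nr4a1. Fos differed between letter B and the mean of A and D by −1.13, Fosb by −1.44, Jun by −0.91, Junb by −0.89 and Jund by −0.59 on the log2 scale, and for each of the 5, B was the lowest and D the highest library in all 4 groups. Their mean log2 CPM was 7.71, 7.06 and 8.38 in CD73+ Treg A, B and D, 7.52, 6.69 and 8.25 in CD73– Treg, 8.38, 8.10 and 8.97 in tdTomato– Treg and 6.66, 5.98 and 7.71 in Tconv. Nr4a2, the NR4A gene outside the list, also had its lowest library in B in 4 of 4 groups (−0.60 against the mean of A and D, F test adjusted p = 0.0016), whereas Nr4a3 had its lowest library in B in 1 of 4 groups. Of the 15 tested genes of the list of AP-1 and other immediate early genes, 11 differed by letter and all 11 were lower in B. Genes of this kind can also be induced while a tissue is taken apart and cells are sorted. What the letters stand for is not in the labels, and the part of handling or of the letter in the level of any of the 6 genes was not tested.

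**Figure D3:**
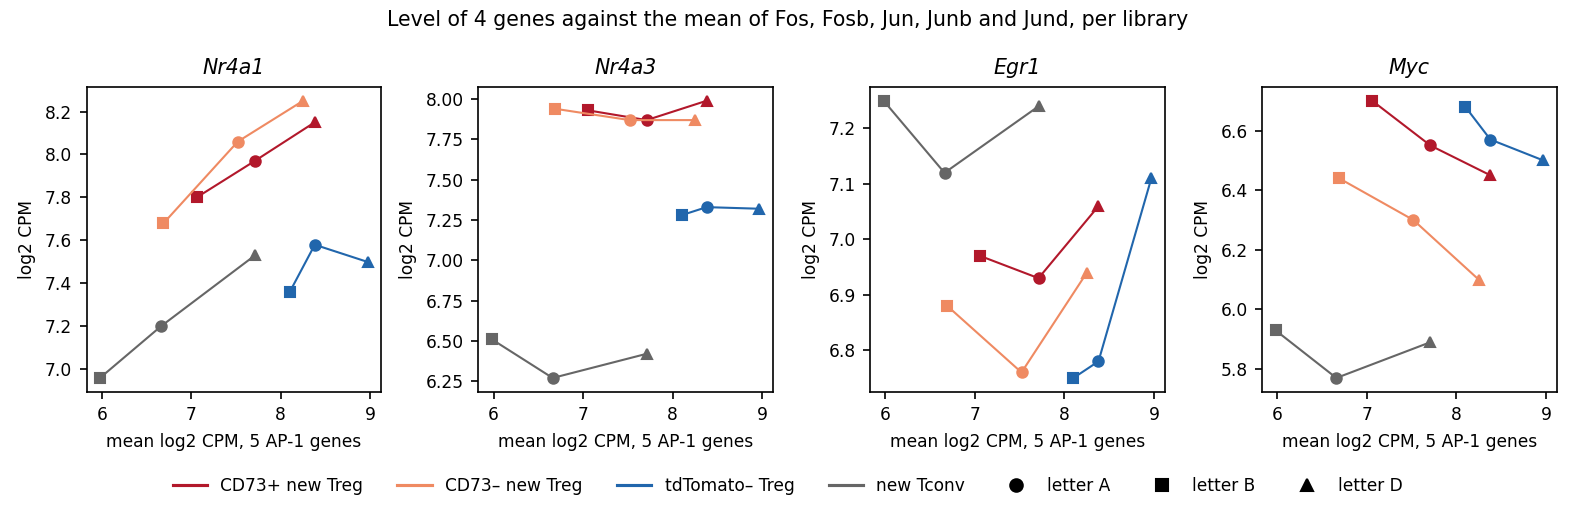
Log2 CPM of Nr4a1, Nr4a3, Egr1 and Myc in each library (y axis) against the mean log2 CPM of Fos, Fosb, Jun, Junb and Jund in the same library (x axis); lines join the 3 libraries of a group. Nr4a1 is lowest at the letter B library, which has the lowest AP-1 mean of each group, Nr4a3 is nearly flat within each group, and Myc is highest at B.

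Genes related to these 6 were counted in the same fits. Among 16 tested relatives and partners of NR4A, EGR and MYC proteins, none passed between CD73+ and CD73– Treg (limma; 3 at an unadjusted p under 0.05, and 1 passed without the CD73– library A). Of the 16, 5 were higher and 4 lower in tdTomato– Treg than in Tconv (26.4% higher and 25.7% lower over all genes), with a median log2 fold change of 0.00 (−0.01 over all genes), and 2 were lower without the 4 libraries of letter D. Nr4a2 (ENSMUSG00000026826.13), named after its values were seen, had a log2 CPM of 4.97, 4.35 and 4.87 in tdTomato– Treg, against 2.78, 2.42 and 3.64 in Tconv (log2 fold change 1.78, SE 0.27, 3.44-fold, limma, adjusted p = 3.1e-05). Both NR4A genes that passed in this comparison were thus higher in tdTomato– Treg. Rxra, a nuclear receptor that pairs with some NR4A proteins, averaged a log2 CPM of 4.78 ± 0.01 in tdTomato– Treg and 3.15 ± 0.36 in Tconv (3.09-fold, limma, adjusted p = 3.6e-07). Mxd1, which competes with MYC for its partner MAX, averaged 7.72 ± 0.03 in tdTomato– Treg and 6.50 ± 0.13 in Tconv (2.33-fold, adjusted p = 5.4e-10). The corepressors of EGR proteins went the other way: Nab2 averaged 5.80 ± 0.16 in tdTomato– Treg and 6.55 ± 0.11 in Tconv (0.597-fold, adjusted p = 1.1e-06), and Nab1 averaged 6.10 ± 0.05 in tdTomato– Treg and 6.63 ± 0.16 in Tconv (0.689-fold, adjusted p = 0.00013).

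A further list held 17 genes that receptor signals induce. Between CD73+ and CD73– Treg 3 of them were higher (1.79% of all genes; limma; 5 higher and 0 lower at an unadjusted p under 0.05; median log2 fold change 0.06, against 0.01 over all genes). With all 4 libraries of letter A left out the count was 0, as it was without those of letter D or without the CD73+ library B, and 1 without the CD73+ library A, the CD73– library A or the CD73– library D. They were Pdcd1, encoding the inhibitory receptor PD-1 (log2 CPM 4.94 ± 0.04 in CD73+ and 4.42 ± 0.08 in CD73– Treg, log2 fold change 0.52, adjusted p = 0.01), Irf4, a factor of effector Treg (6.18 ± 0.10 in CD73+ and 5.83 ± 0.15 in CD73– Treg, log2 fold change 0.35, adjusted p = 0.028), and Cd83 (5.17 ± 0.16 in CD73+ and 4.70 ± 0.14 in CD73– Treg, log2 fold change 0.47, adjusted p = 0.049), which kept its call in 8 of 22 alternatives. A replicate block by letter raised the count between CD73+ and CD73– Treg to 4, adding Rgs1 (limma, log2 fold change 0.22, adjusted p = 0.027). Among all genes, 571 passed with that block. In tdTomato– Treg against Tconv 12 of the 17 rose and 1 fell (median 1.29, against −0.01 over all genes, of which 26.4% were higher and 25.7% lower). Cd83 averaged a log2 CPM of 6.11 ± 0.13 in tdTomato– Treg and 0.01 ± 0.13 in Tconv, and Rgs1, a brake on G protein signalling, 8.21 ± 0.08 in tdTomato– Treg and 4.70 ± 0.13 in Tconv (11.4-fold). The gene that fell was Bcl2l11, encoding the death factor BIM (log2 fold change −0.20, adjusted p = 0.027), which kept its call in 16 of 22 alternatives and lost it without tdTomato– Treg library B, Tconv library A or Tconv library D.

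Of 8 tested feedback inhibitors of the ERK pathway, which lies upstream of the EGR genes, none passed between CD73+ and CD73– Treg (limma; 2 at an unadjusted p under 0.05), and 3 rose and 3 fell in tdTomato– Treg against Tconv (26.4% and 25.7% of all genes). Dusp4 averaged a log2 CPM of 7.69 ± 0.11 in tdTomato– Treg and 3.66 ± 0.44 in Tconv (16.3-fold), and Spry1 4.92 ± 0.08 in tdTomato– Treg and 1.55 ± 0.28 in Tconv (10.4-fold). Dusp6, a phosphatase of ERK in the cytoplasm, averaged 5.09 ± 0.16 in tdTomato– Treg and 6.23 ± 0.09 in Tconv (0.454-fold, limma, adjusted p = 6.6e-08), and Spred2 5.38 ± 0.07 in tdTomato– Treg and 5.92 ± 0.09 in Tconv (0.689-fold). Egr1 was lower in tdTomato– Treg as Dusp6 and Spred2 were, while Egr3 was higher as Dusp4 and Spry1 were. These genes were set side by side after their values were seen, and a link between them was not tested.

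Of 15 tested AP-1 and other immediate early genes, only Srf, encoding serum response factor, passed between CD73+ and CD73– Treg (log2 CPM 5.38 ± 0.07 in CD73+ and 5.02 ± 0.15 in CD73– Treg, log2 fold change 0.36, adjusted p = 0.049), and it kept its call in 6 of 22 alternatives. In tdTomato– Treg against Tconv 12 of 15 rose and none fell (limma; 0 lower at an unadjusted p under 0.05; 26.4% of all genes higher and 25.7% lower; median 0.77, against −0.01 over all genes), among them Nfkbiz (7.50 ± 0.12 in tdTomato– Treg and 6.25 ± 0.24 in Tconv, 2.38-fold) and Ier5 (7.19 ± 0.04 in tdTomato– Treg and 6.47 ± 0.27 in Tconv, 1.65-fold).

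Of 12 genes reported as EGR2 and EGR3 targets in T cells, 2 rose in CD73+ against CD73– Treg (1.79% of all genes). With all 4 libraries of letter A left out, or those of letter D, the count was 0, and it was 1 without any 1 of the CD73+ libraries or the CD73– library A. Zbtb16, the factor of innate-like T cells, averaged a log2 CPM of 1.07 ± 0.32 in CD73+ and −2.80 ± 1.91 in CD73– Treg, where it was at about the level of 3 counts, and Nrgn 1.22 ± 0.42 in CD73+ and −1.05 ± 1.27 in CD73– Treg. In tdTomato– Treg against Tconv 5 of the 12 rose and 5 fell (26.4% and 25.7% of all genes; median −0.23). Tnfrsf9, encoding the costimulatory receptor 4-1BB, averaged 6.98 ± 0.11 in tdTomato– Treg and 4.80 ± 0.06 in Tconv (4.52-fold), and Nrn1 5.23 ± 0.08 in tdTomato– Treg and 1.71 ± 0.15 in Tconv (11.4-fold). The falling genes included Nab2, given above, and Nrgn, at −0.93 ± 0.74 in tdTomato– Treg and 3.18 ± 0.03 in Tconv. The genes on the list thus split, while Egr3 was higher and Egr2 did not pass.

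Of 25 MYC targets of growth and ribosome biogenesis, 1 rose in CD73+ against CD73– Treg: Cad, an enzyme of pyrimidine synthesis (log2 CPM 5.88 ± 0.12 in CD73+ and 5.47 ± 0.07 in CD73– Treg, log2 fold change 0.41, adjusted p = 0.016), which kept its call in 16 of 22 alternatives. It was lost without the CD73+ library A, the CD73– library A or the CD73– library D, among others. With the letter as a replicate block the count was 2, the second being Mybbp1a (log2 fold change 0.20, adjusted p = 0.04, against 0.16 without the block). In tdTomato– Treg, where Myc was 1.65-fold higher than in Tconv, 1 of the 25 rose and 13 fell (26.4% and 25.7% of all genes; median log2 fold change −0.22). The gene that rose was Odc1, the first enzyme of polyamine synthesis (7.42 ± 0.09 in tdTomato– Treg and 5.57 ± 0.10 in Tconv, 3.61-fold, adjusted p = 2.2e-12). Among those that fell were Eif4a1, a helicase of translation initiation (8.09 ± 0.03 in tdTomato– Treg and 8.53 ± 0.11 in Tconv, 0.735-fold, adjusted p = 2.6e-06), and Cdk4, a cell cycle kinase (5.75 ± 0.08 in tdTomato– Treg and 6.19 ± 0.01 in Tconv, 0.739-fold, adjusted p = 5e-05). Myc and most of these genes therefore differed in opposite directions between these groups.

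**Figure D4:**
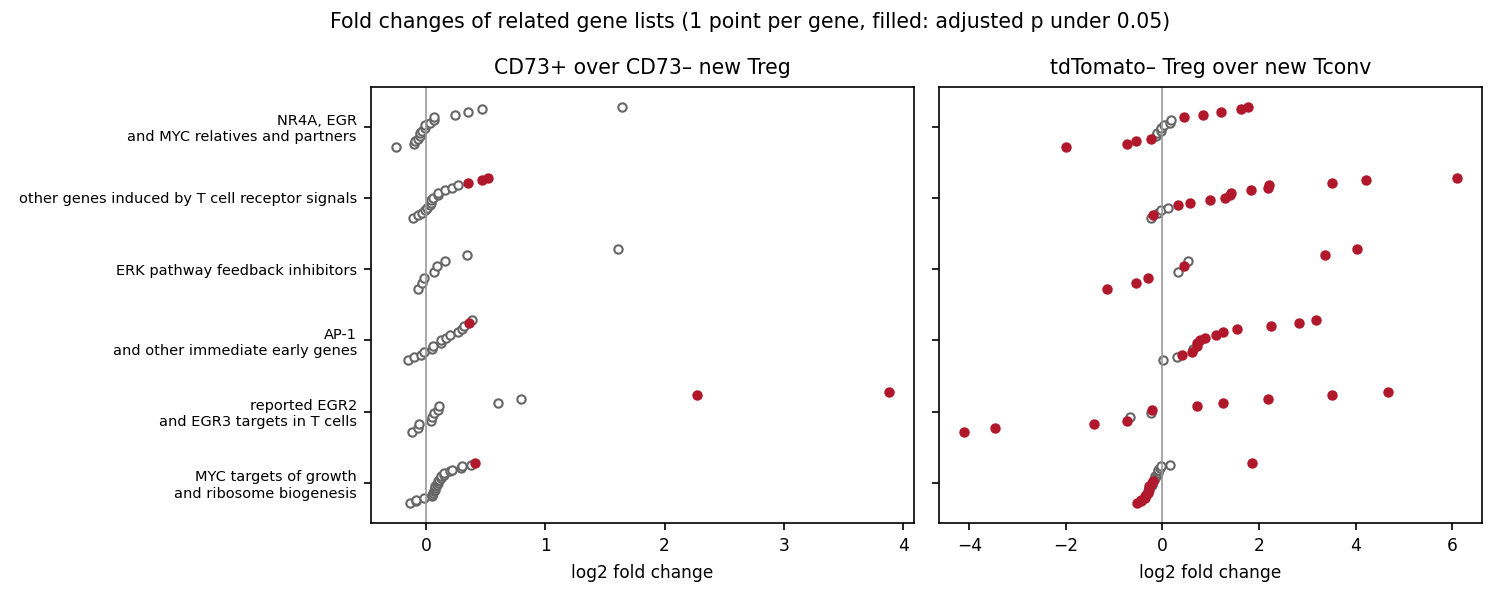
Log2 fold changes of the tested genes of 6 lists, 1 point per gene, filled where the adjusted p is under 0.05, with a separate x scale per comparison. On the right, filled AP-1 and other immediate early genes all lie above 0, while 13 of the 14 filled MYC targets lie below it.

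The genes whose pattern was most like that of each member were looked up over the 12 libraries among 10749 genes, each gene centred on its mean within each table. These correlations are a description over libraries that share groups and letters. Nr4a1 was most like Junb (Pearson r = 0.964), the kinase gene Sik1 (0.942) and Eif1 (0.941), none of which passed in either comparison. Nr4a3 was most like Gsap (0.993), the adhesion gene Icam1 (0.993) and Plcl1 (0.992), all higher in tdTomato– Treg than in Tconv. Myc was most like Uhrf1bp1 (0.982), the AP-1 family gene Batf (0.979) and the ribosomal protein gene Rpl24 (0.975). Egr3 was most like Ptch1 (0.970), Fbxw8 (0.968) and Coq8a (0.966); Fbxw8 and Coq8a passed in both comparisons, in CD73+ against CD73– Treg with log2 fold changes of 0.82 and 0.67 (limma, adjusted p = 0.0028 and 0.021). Egr1 was most like Retreg1 (0.928) and Birc5 (0.919), and Egr2 like Dnajc8 (0.901), Sfr1 (0.900) and Zfp667 (0.826). Among the 6 genes themselves, r was 0.89 between Nr4a3 and Myc, 0.86 between Egr3 and Myc and 0.78 between Nr4a3 and Egr3. Nr4a1 was at 0.39 with Nr4a3, and Egr1 was at −0.65 with Nr4a3 and −0.61 with Myc.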

How the data were processed

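STAR, RSEM and limma and the genome build mm10 are named in the submitters' processing notes; roles, versions and options are not given in the sources used here. Log2 CPM values per gene and library were deposited by the authors in 2 tables of 6 libraries, scaled separately, and the lowest values show an offset of 0.5 count. Of 13207 genes 12410 are in both tables. The authors also deposited log2 fold changes, t statistics (a score), p-values and adjusted p-values per table. All 12 libraries differed from each other.

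Genes reaching a log2 CPM of 0 in 3 or more libraries entered a linear model (limma 3.58.1, R 4.3.3) of all 12 libraries with 4 group means and an intensity trend. Tests were two-sided with Benjamini-Hochberg adjustment over all genes tested, and the threshold was 0.05. There were 22 alternatives per comparison result. The limit of 3 counts covers counting error alone, as reads were not tied to single molecules.

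The 6 genes, the gene lists and the marker lists were chosen with earlier results of these data known. From each list, up to 2 higher and 2 lower genes per comparison were named by smallest p among those past the threshold; other names were chosen after their values were seen. The 3 genes most like each member were named by Pearson r, except for Egr1, where 1 of them is not reported here.

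Same-letter libraries were compared over 9942 genes by the correlation of deviations from group means. It was 0.146, 0.266 and 0.222 for A, B and D between CD73+ and CD73– Treg, all above 0.1, so the letters were taken as pairing these libraries (0.11, 0.082 and 0.058 over all 11167 genes tested). Coordinates are from GENCODE M21 on GRCm38 with the gene ID versions of the deposited table, and no other annotated gene overlaps the 6 genes. Some markers, Clec9a, Krt5 and Psmb11 among them, were not analysed here. Plots were made with matplotlib 3.10.9.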

Additional observations from a re-analysis of the deposited data

How the results depend on the processing

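The replicate block by letter gave 571 genes past the threshold between CD73+ and CD73– Treg, against 273 without it, and 1 of the 6 genes (Myc) against 0. Between tdTomato– Treg and Tconv the same-letter correlations were 0.117, 0.114 and 0.054, not all above 0.1, so the letters were not taken as pairing there. Over all 11167 genes tested they were 0.038, 0.103 and 0.068. With the block Nr4a1 passed (limma, adjusted p = 0.00634) and no other call of the 6 genes changed. Every library but Tconv D correlated best with its own letter in the compared group.

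Between CD73+ and CD73– Treg the count over all genes was 151 with only the compared groups in the fit, 107 without the intensity trend, 26 without the libraries of letter A, 46 without those of letter D, and 95 to 392 with 1 library left out; the authors' deposited table holds 151. The count of the 6 genes was 0 to 1 with 1 library left out. Between tdTomato– Treg and Tconv these counts were 4983 to 5935 and 4 to 5.

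The log2 fold change of Nr4a1 between CD73+ and CD73– Treg was 0.01 with quantile normalisation, 0.01 without letter A, 0.02 without letter D and −0.18 to 0.10 with 1 library left out (0.06 without CD73+ B, 0.01 without CD73– A and 0.10 without CD73– D), and that of Nr4a3 was −0.01 without letter D. The cause was not tested. In that comparison Pdcd1 kept its call in 19 of 22 alternatives, Irf4 in 14, Cd83 in 8, Srf in 6, Zbtb16 in 20, Nrgn in 13 and Cad in 16, and, among genes named after their values were seen, Fbxw8 in 21 and Coq8a in 15. Of the calls of the other genes named by rule in tdTomato– Treg against Tconv, only Bcl2l11 was lost in any alternative. Each fit without a letter rests on 2 libraries a group, and groups of 3 limit the precision throughout.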
